A study of Saccharomyces cerevisiae with 12 samples.

Results

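There are 19 genes that were far brighter in every Σ1278b culture than in either S288c culture of Saccharomyces cerevisiae, and they are described here across both strains and across the changes made to FLO11, FLO8 and MSS11. A probe set, the group of short probes that reads 1 gene on the array, was taken where its lowest log2 signal over the 10 Σ1278b arrays was at least 1.5 above the higher of the 2 S288c arrays, where 1 on this scale is 2-fold. These genes were thus chosen by their log2 signal in the 2 strains. Of 5498 S. cerevisiae probe sets, which read 5449 genes, 26 (0.473%) passed, and 7 of them, for LYS2, LEU2, HMX1, CYB5, CYC1, SUE1 and ERG5, were set aside because they belong to groups of genes treated apart, which left 19. The strain difference itself chose these genes, so it is given as a description, without a test.

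RNA of 12 cultures was hybridized, 1 culture per array, on an Affymetrix yeast array. The Σ1278b strain, a MATα line known for filamentous growth, with the his3Δ::hisG, leu2Δ::hisG and trp1Δ::hisG deletions and the ura3-52 allele, was grown as wild type with an empty vector (3 arrays of a first set and 1 of a second), with FLO11 on a multicopy vector under the constitutive PGK1 promoter (3 arrays, first set), with multicopy FLO8, with multicopy MSS11, and with MSS11 deleted (mss11Δ::LEU2 in the methods) and an empty vector (1 array each, second set). S288c was represented by the MATα laboratory strain BY4742, with multicopy MSS11 and with an empty vector (1 array each, second set). In the paper's strain list BY4742 carries deletion alleles of his3, leu2, lys2 and ura3. That list prints MATa for YHUM272, which has the Σ1278b alleles named above, whereas the labels give MATα for Σ1278b. All cultures were 5 ml of synthetic medium with 2% glucose at 30 °C, harvested in early stationary phase according to the labels and in exponential growth according to the methods. FLO11 encodes the cell wall flocculin of adhesion and invasive growth, and Flo8 and Mss11 are activators of its transcription, of which S288c is known to carry an inactive flo8 allele.

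The transformed genes matched their labels: FLO11 lay between 14.81 and 14.88 on the 3 FLO11 arrays against 11.95 to 12.27 on their wild types, and FLO8 was 14.65 with multicopy FLO8 against 10.34 in the second wild type. MSS11 was 12.29 with multicopy MSS11 and 6.87 in the deletion against 8.22 in the second wild type of Σ1278b, and 11.45 with multicopy MSS11 against 8.49 in the wild type of S288c. URA3 was 8.40 to 8.71 on the first-set arrays and 14.32 to 15.00 on the second-set arrays of both strains, so the sets also differed in the signal of this vector marker. Both strains are labelled MATα, and the 5 α-specific genes summed to 46642 to 60867 intensity units in Σ1278b and 62317 to 67028 in S288c. The 7 a-specific genes, markers of the opposite mating type, summed to 744 to 1131 intensity units in Σ1278b and to 3444 to 9158 in S288c, with 0 of them at background on any array, and 6 of the 7 were higher on both S288c arrays than on all Σ1278b arrays. The 22 genes of general stress and storage carbohydrate summed to 59929 to 92290 units in Σ1278b and 143755 to 166167 in S288c. These shifts run with strain, and their part in the strain difference of the 19 genes was not tested.

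Σ1278b and S288c are related laboratory lineages that differ at many positions in the genome. Genes at chromosome ends and genes for the use of particular nutrients often vary between yeast strains. The probes of the array are short and follow the S288c sequence, so a base that differs in Σ1278b under a probe can lower its signal there with no change in RNA, and a gene copy missing from either strain leaves only cross-hybridization. Probe sequences and a Σ1278b genome were not used here, so the parts of RNA amount, gene copies and probe match were not tested. All Σ1278b arrays lay above both S288c arrays for 28.2% of probe sets and below both for 15.4%. The same threshold applied the other way selected 64 probe sets (1.16%) that were far brighter in S288c, against the 26 (0.473%) that were far brighter in Σ1278b.

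All 19 genes were above background on all 12 arrays, as were 97.4% to 98.5% of S. cerevisiae probe sets on each array. On the S288c wild type array the 19 genes lay at percentiles 3.07 to 82.2 of these probe sets, with a median of 12.7. Their mean difference of Σ1278b over S288c had a median of 2.31 on the log2 scale, and spanned 1.94 to 5.15, beside a median of 0.07 over all probe sets. The gap, the lowest Σ1278b array minus the higher S288c array, was 2 or more in 4 genes, namely YAR068W, DAL1, PLN1 and FRE1. The genes just inside the threshold were YOL014W, HPA2 and CYB2, with gaps of 1.63, 1.57 and 1.55, and those just outside were CYT1, CTR1 and ARE2, with gaps of 1.48, 1.43 and 1.34. Within Σ1278b the span over the 10 arrays had a median of 0.78 for the 19 genes, against 0.38 over all probe sets. YAR068W, DAL1 and DAL4 spanned 1.30, 1.37 and 2.15, and the other 16 less than 1. Without the S288c array with multicopy MSS11, 30 genes met the rule, the 19 among them.

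**Figure D1:**
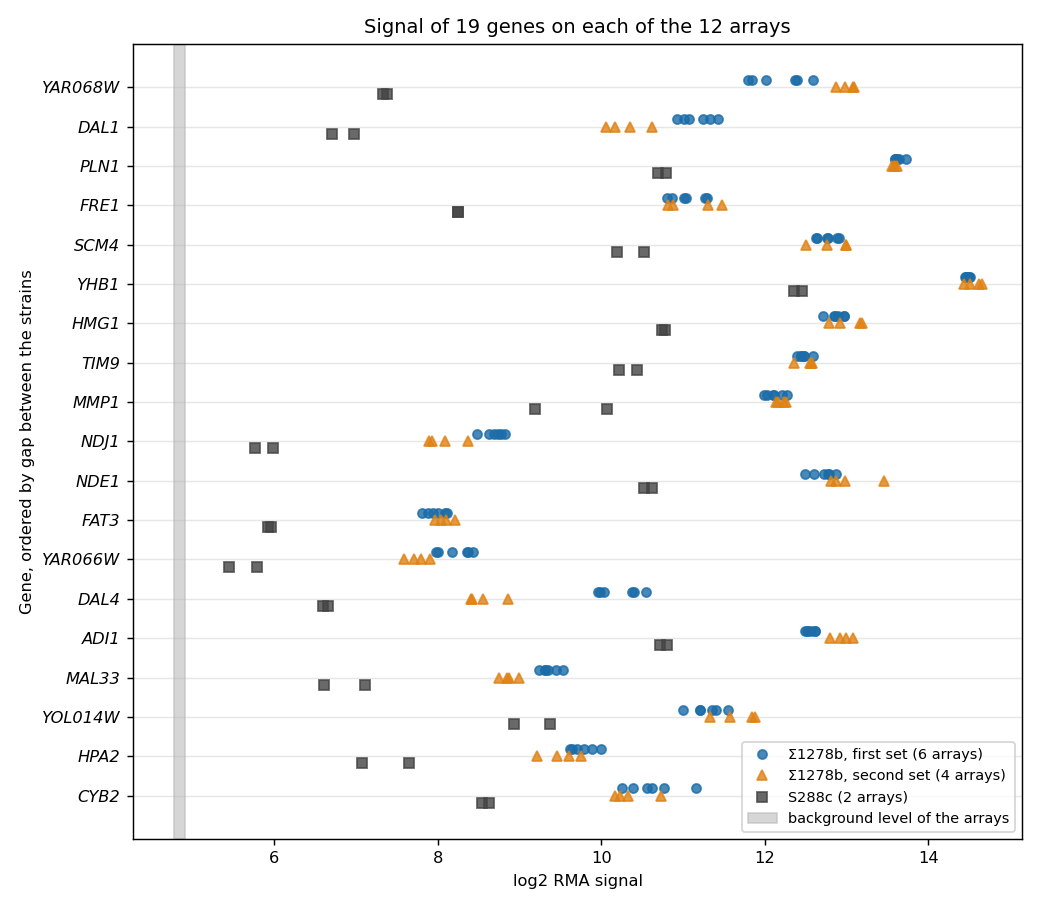
Log2 RMA signal (horizontal axis) of each of the 19 genes on the 10 Σ1278b arrays and the 2 S288c arrays, with 1 point per array. Every Σ1278b point lies at least 1.5 above the higher S288c point of its gene, and YAR068W has the widest gap, 4.41.

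The widest gap lies at the end of chromosome I. YAR068W, of unknown function, had a lowest, median and highest signal of 11.79, 12.49 and 13.09 in Σ1278b, against 7.38 in the S288c wild type and 7.33 with multicopy MSS11. That is 35.5-fold on average, and the strains are separated by more than the spread of either. YAR066W, also of unknown function, reached 7.59, 7.99 and 8.43 in Σ1278b against 5.79 and 5.45 in S288c. Its probes are shared between related genes, so it is not resolved from its relatives. The nearby FLO1, which encodes a flocculin, had a lowest, median and highest signal of 3.88, 4.02 and 6.40 in Σ1278b, with the median below the background of 4.77 to 4.90, and on the S288c arrays it read 6.88 in the wild type and 12.77 with multicopy MSS11, the highest reading of the 12.

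DAL1 and DAL4 encode allantoinase and the allantoin permease, which import and begin to degrade allantoin, a poor nitrogen source that yeast uses when better ones run out. They lie side by side on chromosome IX within a cluster of allantoin genes and are read in opposite directions. DAL1 spanned 10.06, 10.97 and 11.43 in Σ1278b, against 6.98 and 6.71 in S288c, a mean difference of 3.98 (15.8-fold) that was 3.19 (9.14-fold) between the wild types of the second set alone, to which both S288c arrays belong. DAL4 spanned 8.41, 9.97 and 10.55 in Σ1278b, against 6.59 and 6.66 in S288c, a mean difference of 2.93 (7.60-fold) that was 1.81 (3.51-fold) between the second-set wild types. The neighbouring cluster genes differed less: DAL2, DAL3 and DAL7 differed by 0.28, 0.12 and -0.36 and overlapped between strains. DCG1 differed by 0.67, with all Σ1278b arrays above both S288c arrays by a gap of 0.12. Of other genes of poor nitrogen sources, the allantoate permease DAL5 and the repressor DAL80 differed by 0.55 and 1.49 and overlapped between strains. DUR3, the urea permease, differed by -3.46, with both S288c arrays above all Σ1278b arrays.

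**Figure D2:**
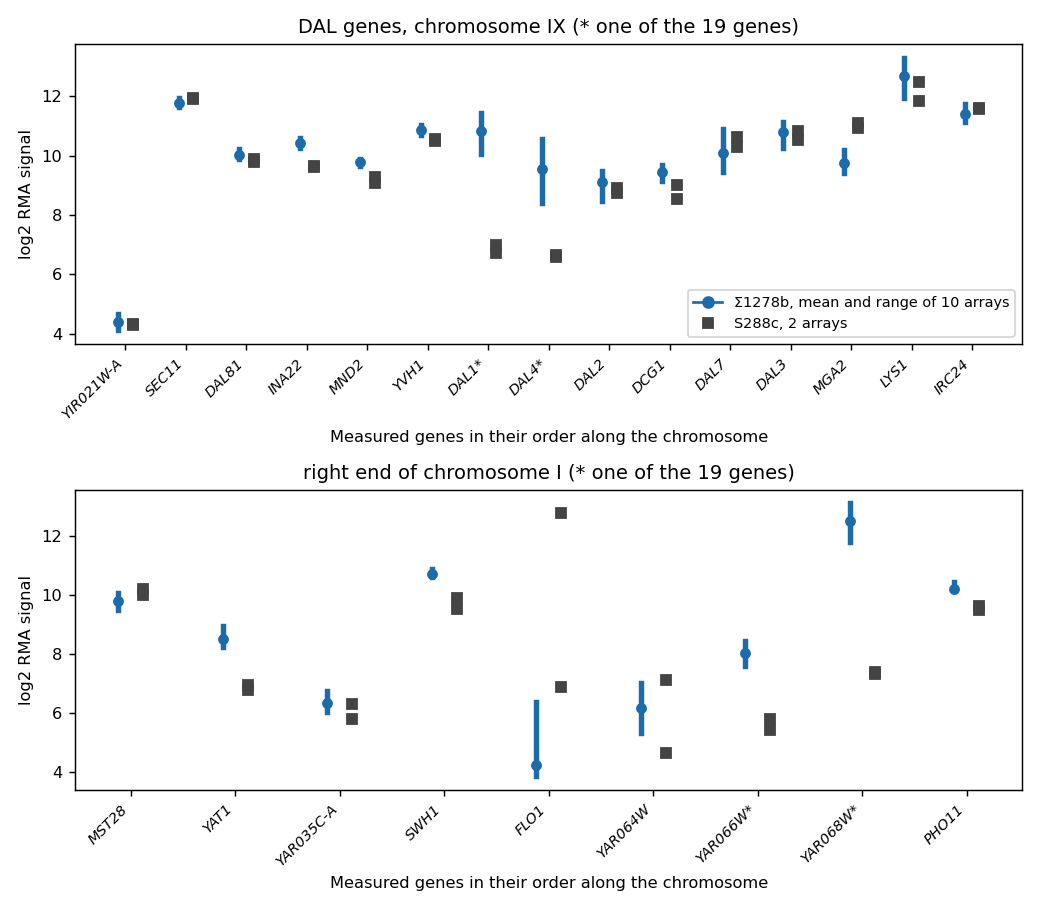
Log2 RMA signal (vertical axis) of measured genes in their order along chromosome IX around DAL1 and DAL4 and at the right end of chromosome I, with lines for the range and points for the mean of 10 Σ1278b arrays and squares for the 2 S288c arrays. DAL1 and DAL4 separate the strains, whereas DAL2, DAL3 and DAL7 beside them overlap.

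Methionine and S-methylmethionine genes gave another neighbouring pair. MMP1, the high-affinity permease for S-methylmethionine, a sulphur source, read 11.99, 12.15 and 12.27 in Σ1278b against 9.19 in the S288c wild type and 10.07 with multicopy MSS11. MHT1, the next gene, encodes the S-methylmethionine homocysteine methyltransferase and is read away from MMP1, and its signal was higher in Σ1278b by 1.83, below the threshold at a gap of 1.07. SAM4 and SAM3, a homologous methyltransferase and a permease for S-adenosylmethionine, differed by -0.74 and -0.32. ADI1, the acireductone dioxygenase of methionine salvage, spanned 12.49, 12.62 and 13.08 in Σ1278b against 10.72 and 10.81 in S288c, whereas the other salvage genes examined differed by -0.71 to 0.25.

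Several of the genes serve mitochondria and respiration. NDE1, the external NADH dehydrogenase of mitochondria, reached 12.49, 12.80 and 13.46 in Σ1278b against 10.62 and 10.52 in S288c. Its paralogue NDE2 differed by -0.18 and overlapped between strains, and NDI1, the internal NADH dehydrogenase, was higher in Σ1278b by 1.31. CYB2, the cytochrome b2 that oxidises lactate, reached 10.17, 10.47 and 11.16 in Σ1278b against 8.62 and 8.54 in S288c, and DLD1, which oxidises the other isomer of lactate, was higher in Σ1278b by 0.54. TIM9, a chaperone of protein import in the intermembrane space, read 12.36, 12.48 and 12.59 in Σ1278b against 10.43 and 10.22 in S288c. The other TIM genes examined differed by 0.00 to 0.48. SCM4, a mitochondrial outer membrane protein, read 12.50, 12.76 and 12.998 in Σ1278b against 10.19 and 10.52 in S288c. Of 27 respiratory chain genes measured, 22 were higher on all Σ1278b arrays than on both S288c arrays (28.2% of all probe sets did so). In the other direction 2 were lower (15.4% of all probe sets), 1 of them by the threshold of 1.5. The median difference of the 27 was 0.70 beside 0.07. NDE1 and CYB2, which the rule chose by this difference, are among the 22, and the list was chosen with earlier results known.

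Genes of lipid and sterol metabolism were PLN1, HMG1 and FAT3. PLN1 encodes perilipin, a coat protein of lipid droplets, and its signal was 13.56, 13.60 and 13.73 in Σ1278b against 10.70 and 10.79 in S288c, with the narrowest Σ1278b span of the genes, 0.17. HMG1, one of the HMG-CoA reductases that commit carbon to sterols, spanned 12.71, 12.91 and 13.19 in Σ1278b against 10.78 and 10.74 in S288c. HMG2, its paralogue, differed by -0.34, and both S288c arrays lay above every Σ1278b array. FAT3, needed for fatty acid uptake, spanned 7.81, 8.02 and 8.21 in Σ1278b against 5.96 and 5.92 in S288c. ARE2, which esterifies sterols, and YEH1, a steryl ester lipase, were higher in Σ1278b by 1.64 and 1.69 without passing the threshold, and the lipid droplet gene LDO16 differed by -0.83.

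CYB2, HMG1 and YHB1, the last described next, are known targets of the heme-responsive activator Hap1. HAP1 itself read 10.75 to 11.54 in Σ1278b against 11.24 and 11.43 in S288c, so the strains overlapped. Its signal does not measure Hap1 activity, and the part of Hap1 in these genes was not tested. FRE1, a reductase that frees iron and copper for uptake, spanned 10.81, 11.03 and 11.48 in Σ1278b against 8.25 on both S288c arrays. CTR1, the copper transporter, was higher in Σ1278b by 1.80. The related reductases FRE2 to FRE8 differed by 0.01 to 0.67, apart from FRE5, which was below background in both strains. YHB1, the flavohemoglobin that detoxifies nitric oxide, spanned 14.44, 14.49 and 14.66 in Σ1278b against 12.36 and 12.46 in S288c. MAL33, an activator of maltose genes, spanned 8.75, 9.27 and 9.53 in Σ1278b against 6.61 and 7.11 in S288c. MAL31, which encodes a maltose permease, differed by 0.16 and overlapped between strains, while MAL32, a maltase gene with shared probes, differed by 1.11. NDJ1, of the telomeres in meiosis, spanned 7.89, 8.56 and 8.82 in Σ1278b against 5.77 and 5.99 in S288c. HPA2, an acetyltransferase, spanned 9.22, 9.67 and 9.999 in Σ1278b against 7.65 and 7.07 in S288c, while its relative HPA3 differed by 0.78. SPO11, the meiotic double-strand break nuclease, read 4.53, 5.02 and 5.28 in Σ1278b, close to background, against 8.77 and 8.92 in S288c. YOL014W, whose function is unknown, spanned 11.002, 11.38 and 11.88 in Σ1278b against 9.37 and 8.93 in S288c.

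**Figure D3:**
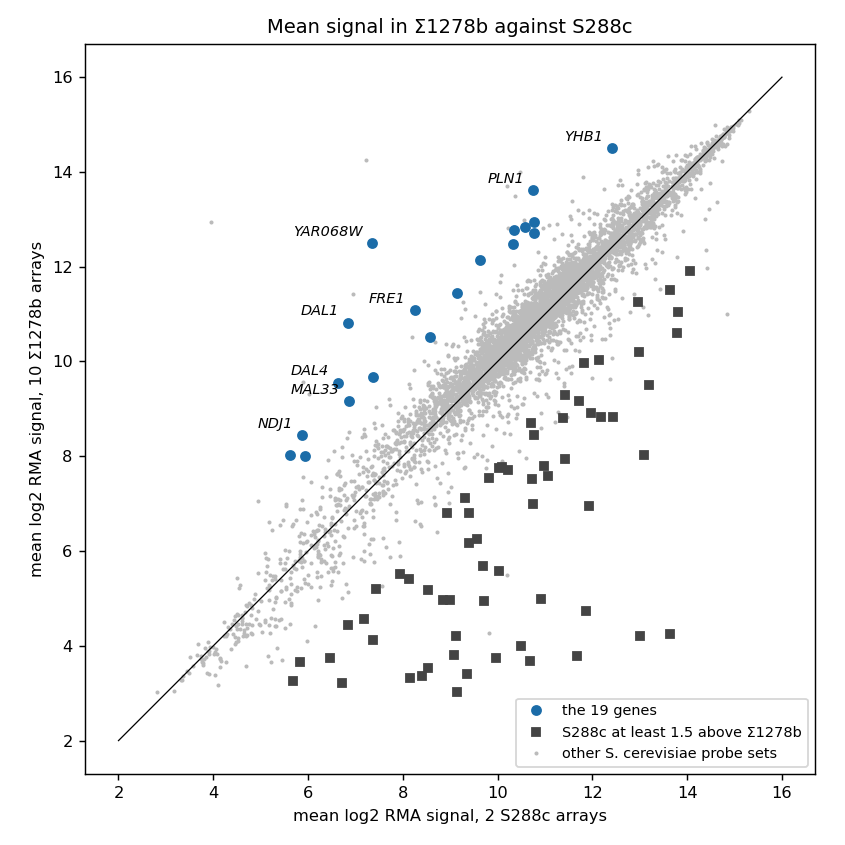
Mean log2 RMA signal of S288c (horizontal axis) and Σ1278b (vertical axis) for each S. cerevisiae probe set, with the 19 genes as circles, the 64 probe sets far brighter in S288c as squares, and equal signal as a line. The 64 outnumber the 26 that passed the threshold for Σ1278b.

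Positions were compared by gene order only. Of the 19 genes, 5 lay within 10 genes of a chromosome end (26.3%), namely YAR068W, YAR066W, MAL33, MMP1 and HPA2, against 4.79% of measured genes and 35.9% of the 64 probe sets far brighter in S288c. Of the 19, 0 overlapped another annotated gene. Of 27 measured genes beside them, 13 were higher on all Σ1278b arrays than on both S288c arrays (48.1%) and 2 lower, with a median difference of 0.17, against 28.2% higher, 15.4% lower and a median of 0.07 over all probe sets. The lowest, -3.83, was URA3 beside TIM9. URA3 is a vector marker that read 8.40 to 8.71 on first-set Σ1278b arrays and 14.32 to 14.82 on second-set ones. On the S288c arrays it read 15.00 and 14.67, overlapping the second-set Σ1278b arrays. The chromosomal ura3 alleles of the strains also differ, and their part in the TIM9 signal was not tested.

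The Σ1278b arrays of the second set allowed the strains to be compared with an empty vector and with multicopy MSS11. Their other alleles, among them the marker alleles and flo8, still differed. With an empty vector, Σ1278b exceeded S288c by 1.61 to 5.49 over the 19 genes (median 2.26), and with multicopy MSS11 by 1.63 to 5.75 (median 2.34). The 2 pairs gave differences that varied by 0.06 to 0.87 from gene to gene. Each pair is 1 array a strain, and the strain difference chose the genes, so these are descriptions.

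The rule did not use the contrast of FLO11 overexpression with wild type, since both groups were Σ1278b. It did use the lowest of these arrays, so a gene with a large fall on the FLO11 arrays could have dropped out. Of the 19 genes 3 passed limma with Benjamini-Hochberg adjustment over all probe sets, where 6.35% of probe sets did, 2 of them higher (3.8% of probe sets) and 1 lower (2.55%). The FLO11 and wild type arrays did not overlap for 8 of the 19 genes, against 29.5% of all probe sets, and 9 had an unadjusted p under 0.05, against 23.0%. The median effect was -0.02, against -0.01 over all probe sets. DAL4 read 10.55, 10.40 and 10.37 on FLO11 arrays against 10.04, 9.98 and 9.96 on wild type arrays, and it rose by 0.45 (SE 0.06, limma with Benjamini-Hochberg adjusted p = 0.00854). DAL1 read 11.24, 11.43 and 11.33 on FLO11 arrays against 10.93, 11.07 and 11.01 on wild type arrays, and it rose by 0.33 (SE 0.06, limma with Benjamini-Hochberg adjusted p = 0.0294), a call lost on leaving out any array but FLO11 replicate 1 (adjusted p 0.0695 to 0.0901). With the second wild type added to the first, neither DAL4 nor DAL1 passed (limma adjusted p = 0.354 and 0.274).

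YAR068W read 12.01, 11.84 and 11.79 on FLO11 arrays against 12.40, 12.59 and 12.37 on wild type arrays, and it fell by 0.57 (SE 0.08, limma with Benjamini-Hochberg adjusted p = 0.0102). All FLO11 arrays were below all wild type arrays. Of the allantoin genes that are not among the 19, DAL5, DAL80 and DAL7 changed by 1.09, 1.12 and 0.74 (limma with Benjamini-Hochberg adjusted p = 6.16e-04, 6.16e-04 and 0.00457), and DAL2, DAL3 and DCG1 by 0.11, 0.19 and -0.03 (adjusted p = 0.166, 0.122 and 0.740). CYB2, YOL014W, HPA2 and FAT3 had effects of 0.45, -0.30, 0.23 and -0.19, with limma adjusted p = 0.120, 0.0713, 0.0784 and 0.0863, and did not pass. The other 12 genes had effects of -0.21 to 0.15 and did not pass either.

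**Figure D4:**
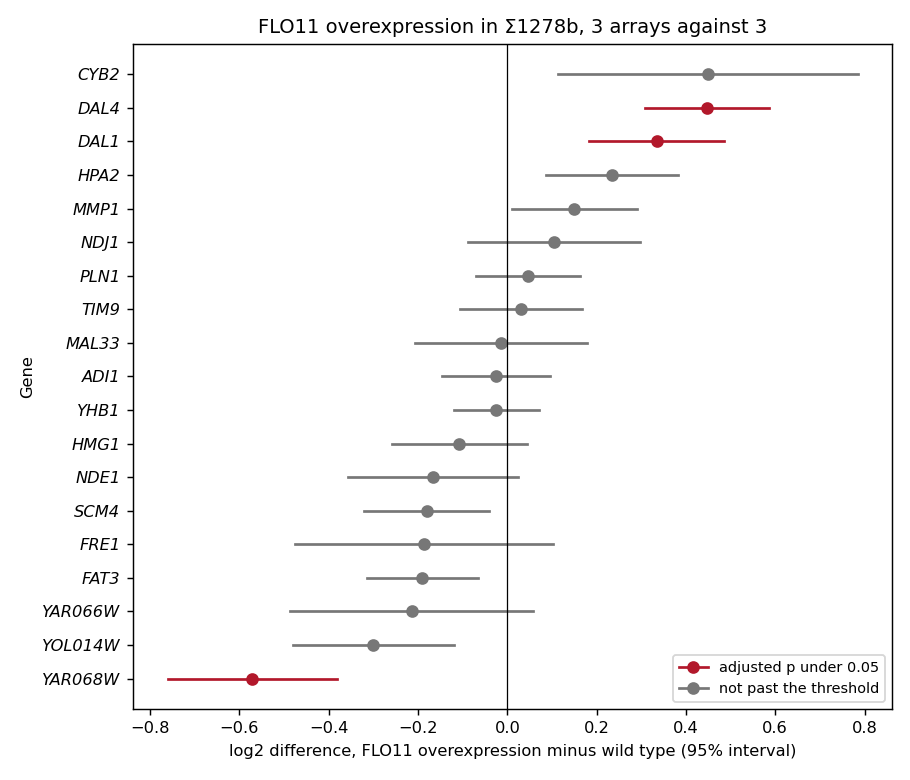
Change in log2 RMA signal with FLO11 overexpression against wild type (3 arrays each) for the 19 genes, with 95% intervals from limma. DAL4, DAL1 and YAR068W passed the adjusted threshold, DAL4 and DAL1 as higher and YAR068W as lower.

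The other alleles were 1 array each. Multicopy FLO8 changed no gene by 2-fold, with differences from the second wild type of -0.16 to 0.42 (0.818% of probe sets changed by 2-fold), nor did multicopy MSS11 (-0.19 to 0.60, 1.22%) or the mss11 deletion (-0.26 to 0.49, 0.637%). These 3 comparisons share the second wild type. From replicate cultures, the paper lists MMP1 as significantly raised by MSS11 overexpression in S288c, by more than 2-fold. On the single S288c arrays here multicopy MSS11 changed none of the 19 genes by 2-fold (1.67% of probe sets). The genes ranged from -0.57 for HPA2 to 0.88 for MMP1. The pooled limma fit passed these 2 of the 19 genes (12.4% of probe sets), and its term for a different MSS11 effect in S288c and Σ1278b passed 3, HPA2, DAL1 and MMP1 (4.77% of probe sets). That fit takes its spread from other groups, and these single arrays also entered the choice of the genes, so nothing is read from the counts.

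The second Σ1278b wild type and the first, which carry the same strain label, differed by 2-fold in 1 of the 19 genes (1.55% of probe sets). DAL4 was 8.41 in the second wild type and 10.04, 9.98 and 9.96 in the first, a difference of -1.59 (pooled limma, which assumes that the lone array varies as the replicated groups do, Benjamini-Hochberg adjusted p = 1.34e-04). DAL1 was 10.17 in the second wild type and 10.93, 11.07 and 11.01 in the first, a difference of -0.83 (pooled limma, Benjamini-Hochberg adjusted p = 0.00176). For both genes the second wild type lay below every array of the first. In the pooled limma fit 7 of 19 genes passed (18.0% of probe sets), with DAL4, DAL1, NDJ1, MAL33 and YAR066W lower and ADI1 and YAR068W higher. The second-set Σ1278b arrays as a whole lay below all first-set arrays for DAL1, NDJ1, YAR066W, DAL4 and MAL33 (5 genes, against 15.6% of all probe sets) and above them for YAR068W and ADI1 (2 genes, against 12.3%), together 7 genes against 27.9%. URA3 signal also separated the sets, and the parts of the set and of this marker cannot be told apart.

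**Figure D5:**
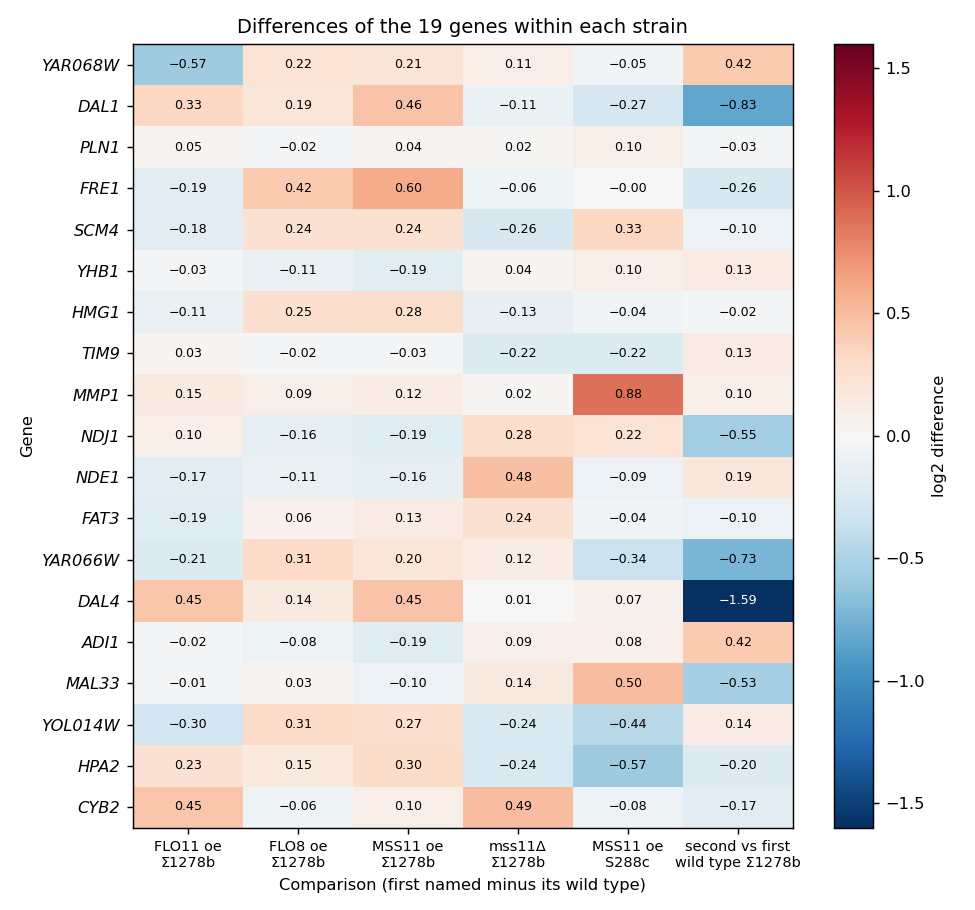
Heat map of log2 differences, with 1 row per gene and 1 column per comparison (FLO11, FLO8 and MSS11 overexpression and the mss11 deletion in Σ1278b, MSS11 overexpression in S288c, each minus its wild type, and the second minus the first wild type). The strongest colour is DAL4 in the second against the first wild type, -1.59, and all cells for FLO8 or MSS11 lie within 2-fold.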

How the data were processed

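Arrays were scanned with GCOS 1.4 by the authors, whose deposited values are RMA intensity (background corrected, quantile normalized, 1 value per probe set and array, linear). No RMA version is given in the sources used here. Deposited intensities were put on the log2 scale without a pseudocount, as all were above 0, although the design had assumed log2 values. Of 10928 probe sets, 5498 belong to exactly 1 S. cerevisiae gene (5449 genes, 12 symbols updated through a gene table of assembly R64, used only for names and gene order). The 95th percentile of 1747 probe sets taken as Schizosaccharomyces pombe, 4.77 to 4.90 on the log2 scale, served as background, and 97.4% to 98.5% of the 5498 exceeded it. Array medians were 10.72 to 10.84. The number of arrays limits precision.

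The 3 FLO11 arrays were tested against the 3 first-set wild type arrays by limma 3.58.1 (R 4.3.3, two-sided). P-values were adjusted by Benjamini-Hochberg over 5498 probe sets, with a threshold of 0.05. Single arrays were called at 2-fold, with the brighter array above background. A pooled limma fit over all 12 arrays gave beside this a test that takes the spread from the replicated groups. The fits were tested on simulated data. All 19 genes are named, in the order of their roles. The genes, the 24 gene lists (4 of which hold 6 of the 19 genes: nitrogen catabolite repression 2, respiratory chain 2, iron 1, sugar use 1) and the related genes set beside them were chosen with earlier results of these data known. The labels call the arrays biological replicates. Alternatives were other thresholds, normalizations, array sets and left-out arrays. Same-numbered FLO11 and wild type arrays correlated at 0.03, -0.12 and -0.27 in their deviations, so the numbers do not pair them.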

Additional observations from a re-analysis of the deposited data

Results flagged for a closer look

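The difference in the effect of multicopy MSS11, S288c minus Σ1278b, stood out for 3 of the 19 genes in the interaction term of the pooled limma fit, which 4.77% of all probe sets passed. HPA2 changed by -0.57 in S288c and 0.30 in Σ1278b, a difference of -0.87. DAL1 changed by -0.27 in S288c and 0.46 in Σ1278b, a difference of -0.72. MMP1 changed by 0.88 in S288c and 0.12 in Σ1278b, a difference of 0.76. Each effect is 1 array against 1, the spread came from other groups, and the same arrays entered the choice of the genes, so these are values to look at again and not calls.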

How the results depend on the processing

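The 19 genes became 37 at a gap of 1, 4 at a gap of 2 and 29 with the first-set Σ1278b arrays alone, and 19 to 30 with 1 array left out (30 without the S288c MSS11 array, 22 without the S288c wild type), with other choices giving 18 to 22. After FLO11 overexpression 3 genes passed, 1 with both wild types and 2 to 3 with 1 array left out. Over all probe sets 349 passed, 208 with a replicate block, 109 with both wild types and 96 to 318 with 1 array left out. The replicate block left 3 of the 19 passing. At a log2 difference of 0.58 in place of 1, multicopy MSS11 gave 1 gene in Σ1278b and 1 in S288c, and the second wild type 3; the pooled limma fit gave 2 in S288c and 7 for the second wild type. With both wild types DAL1 and DAL4 had effects of 0.54 and 0.84 (limma adjusted p = 0.274 and 0.354), and the cause was not tested. Of the effects of single genes under alternatives, 231 kept their direction and side of the threshold, 7 lost the call, 1 gained it (YOL014W, adjusted p = 0.0336 with trend and robust options in limma's eBayes), and 8 turned sign, each near 0: MAL33 (-0.01 as reported) was 0.12 with both wild types, 0.03 without wild type replicate 1, 0.048 without FLO11 replicate 1 and 0.009 without FLO11 replicate 3 (-0.10 to 0.048 with 1 array left out), TIM9 (0.03) was -0.0015 with both wild types and -0.021 without FLO11 replicate 3 (-0.021 to 0.078), and ADI1 (-0.02) was 0.001 without wild type replicate 1 and 0.0012 without FLO11 replicate 1 (-0.058 to 0.0012).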
